A study of Danio rerio with 2 samples.

Results

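The genes described here code for the subunits of AMPK, the AMP-activated protein kinase. They are all genes of the zebrafish mTOR signaling PCR array whose symbol starts with *prkaa*, *prkab* or *prkag*, which gave 7 of the 84 pathway genes of the plate. The 7 genes are 2 catalytic alpha subunits (*prkaa1* and *prkaa2*), 2 beta subunits (*prkab1a* and *prkab2*) and 3 gamma subunits (*prkag1*, *prkag2b* and *prkag3a*). The gene table of the RefSeq annotation lists 10 protein-coding zebrafish genes with such symbols, and the other 3 (*prkab1b*, *prkag2a* and *prkag3b*) have no well on this plate.

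AMPK is a sensor of cellular energy built from 1 alpha, 1 beta and 1 gamma subunit. The alpha subunit carries the kinase domain, the beta subunit holds the complex together and carries a module that binds glycogen, and the gamma subunit binds AMP, ADP and ATP. When energy runs short, the kinase LKB1 phosphorylates the alpha subunit, and the active complex restrains mTORC1 through the proteins TSC2 and Raptor and starts autophagy through Ulk1. In mammals, the alpha2, beta2 and gamma3 subunits are abundant in skeletal muscle, whereas alpha1, beta1 and gamma1 are found in most tissues.

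Transcripts were compared between larvae of WT (AB/TU) zebrafish and homozygous NOD1-1IS-/- zebrafish at 10 dpf. The mutants carry an insertion of 1 base pair that Cas9 and a guide RNA made in *nod1*, the gene of a cytosolic immune receptor, and the labels name no treatment for either genotype. All mutant replicates come from this 1 allele. The methods describe separate WT and mutant parents for the survival assays, and do not give the parents of the pools used here. Each genotype had 3 biological replicates, each a pool of 200 to 250 whole larvae whose sex was not given, and each read on 1 plate with 1 well per gene. The gene *nod1* has no well on the plate, so the genotype of a replicate could not be checked by its own transcript. In pools of whole larvae, fewer cells of a type and less RNA per cell cannot be told apart.

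The measurement is the threshold cycle (Ct) of SYBR Green PCR, at which a well passes a fixed fluorescence. The Ct scale is logarithmic and reversed, so a later Ct means less template, and fold values here assume that the product doubles in each cycle. None of the 534 gene wells was undetermined. Their Ct lay between 14.6 and 29.0 cycles, and the wells of the AMPK genes lay between 21.4 and 25.7. A fixed template in the positive control wells had a mean Ct of 19.7 in WT and 19.5 in NOD1-1IS-/-, a difference of −0.21 cycles that involves no larval RNA. Single replicates ranged from 19.25, in a mutant replicate, to 19.71. The WT mean (19.708) lay close to this maximum (19.713), so the spread lay among the NOD1-1IS-/- plates. Expression was taken as ΔCt, for which the average Ct of the reference genes *hprt1*, *nono* and *rpl13a* is subtracted within each replicate, and a higher ΔCt means less transcript. To compare NOD1-1IS-/- with WT, limma was fitted to −ΔCt of all 84 pathway genes, with Benjamini-Hochberg adjustment and a threshold of 0.05. PCR plates have no read depth, and the 3 replicates per genotype limit the precision.

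Transcripts of *prkab2* and *prkaa2* were lower in NOD1-1IS-/- than in WT larvae with the 3 reference genes named above. The direction of both turned only when *acta1b* was the single reference gene. Under 11 other references, *prkab2* stayed lower with an adjusted p under 0.05 from limma in 9, and *prkaa2* in only 6. With the 3 reference genes named above, the other 5 AMPK genes did not pass the test. Thus 2 of the 7 genes were lower with an adjusted p under 0.05, against 19% of the 84 pathway genes, and 0 of the 7 were higher, against 3.57% of the pathway genes (limma; 2 of the 7 had an unadjusted p under 0.05, both lower). The median log2 fold change was −0.06 over the 7 genes and −0.11 over the 84 pathway genes. The genes that were lower are 1 of the 2 alpha genes and 1 of the 2 beta genes, and none of the 3 gamma genes was among them.

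**Figure D1:**
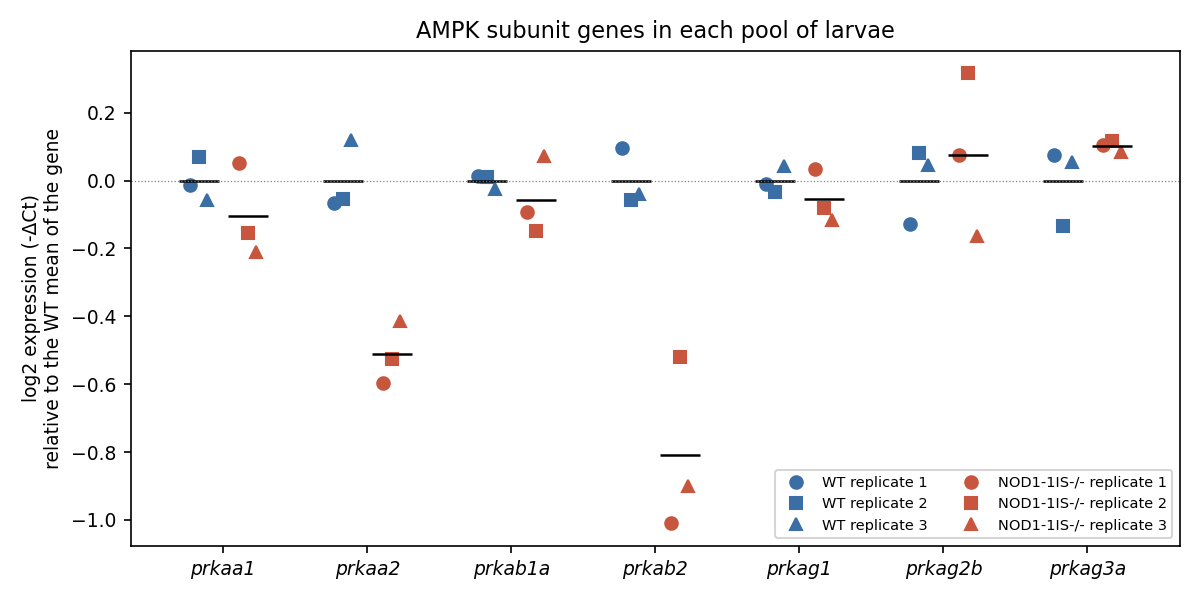
Expression of the 7 AMPK subunit genes (x axis) in each pool of larvae, as −ΔCt on the log2 scale relative to the WT mean of the same gene (y axis). Blue symbols are WT and red symbols NOD1-1IS-/- replicates, the shape gives the replicate number and black lines are means of 3; the NOD1-1IS-/- points lie apart from WT and below it for *prkaa2* and *prkab2*, a direction that turns if *acta1b* alone is the reference.

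The catalytic alpha subunit was read by a pair of genes. The ΔCt of *prkaa2* (XM_695739), which codes for the alpha2 catalytic subunit, was 5.82, 5.81 and 5.63 cycles in WT replicates 1, 2 and 3 and 6.35, 6.28 and 6.17 in NOD1-1IS-/- replicates 1, 2 and 3. All 3 mutant pools thus had less transcript than every WT pool, with a gap of 0.35 cycles between the genotypes and an SD within a genotype of 0.104 (WT) and 0.0909 (NOD1-1IS-/-). The log2 fold change was −0.51 (standard error 0.11, 95% interval −0.75 to −0.27, adjusted p = 0.00664 from limma), so the mutants had 70.1% of the WT level. With 3 replicates against 3, an exact permutation p cannot fall below 0.1 (two-sided), and *prkaa2* reached this value.

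The other alpha gene, *prkaa1* (NM_001110286), codes for the alpha1 catalytic subunit. Its ΔCt was 4.41, 4.33 and 4.46 in the WT replicates and 4.35, 4.56 and 4.61 in the NOD1-1IS-/- replicates, in the same order. The genotypes overlapped, since mutant replicate 1 lay between the WT values. The log2 fold change was −0.10 (95% interval −0.35 to 0.14, adjusted p = 0.521 from limma), or 93.0% of WT.

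The beta subunits are the scaffold of the complex. The gene *prkab2* (NM_001130633), which codes for the beta2 subunit, had a ΔCt of 4.93, 5.09 and 5.07 in the WT replicates and 6.04, 5.55 and 5.93 in the NOD1-1IS-/- replicates. The genotypes did not overlap and were separated by 0.46 cycles, although mutant replicate 2 lay nearer to WT than the other two did. The SD was accordingly larger in NOD1-1IS-/- (0.256 cycles) than in WT (0.0839), and the mutant value was the largest SD among the 7 genes.

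The log2 fold change of *prkab2* was −0.81 (standard error 0.14, 95% interval −1.12 to −0.50, adjusted p = 0.00217 from limma), which is 1.75-fold lower expression, or 57.0% of WT. Its exact permutation p was again 0.1. Among the 84 pathway genes, *prkab2* had the rank 6 and *prkaa2* the rank 11, counted from the lowest log2 fold change. Set against the median log2 fold change, which removes any shift that a reference gives to all genes alike, *prkab2* was at −0.70 and *prkaa2* at −0.40.

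The second beta gene, *prkab1a* (NM_001002632), codes for a beta1 subunit and was read in the well between those of *prkaa2* and *prkab2*. Its ΔCt was 2.54, 2.54 and 2.58 in WT and 2.65, 2.70 and 2.48 in NOD1-1IS-/-. The mutant values lay on both sides of the narrow WT range, and the log2 fold change was −0.06 (95% interval −0.29 to 0.18, adjusted p = 0.726 from limma).

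The gamma subunits bind the adenine nucleotides. For *prkag1* (NM_213161), the gamma1 subunit, ΔCt was 2.21, 2.23 and 2.15 in WT and 2.16, 2.28 and 2.32 in NOD1-1IS-/-, and the log2 fold change was −0.05 (95% interval −0.28 to 0.17, adjusted p = 0.726 from limma). For *prkag2b* (XM_005163299), a gamma2 subunit, ΔCt was 5.25, 5.04 and 5.08 in WT and 5.05, 4.81 and 5.28 in NOD1-1IS-/-, and the log2 fold change was 0.08 (95% interval −0.23 to 0.38, adjusted p = 0.726 from limma). The genotypes overlapped for both genes, and the mutant pools of *prkag2b* spread more widely than the WT pools (SD of 0.239 and 0.113 cycles). Without NOD1-1IS-/- replicate 2 the log2 fold change of *prkag2b* was −0.043.

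The gene *prkag3a* (XM_005160292) codes for a gamma3 subunit. Its ΔCt was 4.91, 5.12 and 4.93 in WT and 4.88, 4.87 and 4.90 in NOD1-1IS-/-, where it had the smallest SD of the 7 genes (0.0155 cycles). The 3 mutant values lay just below all WT values, with almost no gap, and the difference did not pass the test (log2 fold change 0.10, 95% interval −0.13 to 0.33, adjusted p = 0.515 from limma). By the criterion that the replicates of the genotypes do not overlap, 2 of the 7 genes were lower, against 28.6% of the 84 pathway genes, and 1 was higher, against 9.52%. On this criterion the share of lower genes was no larger among the AMPK genes than on the plate.

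**Figure D2:**
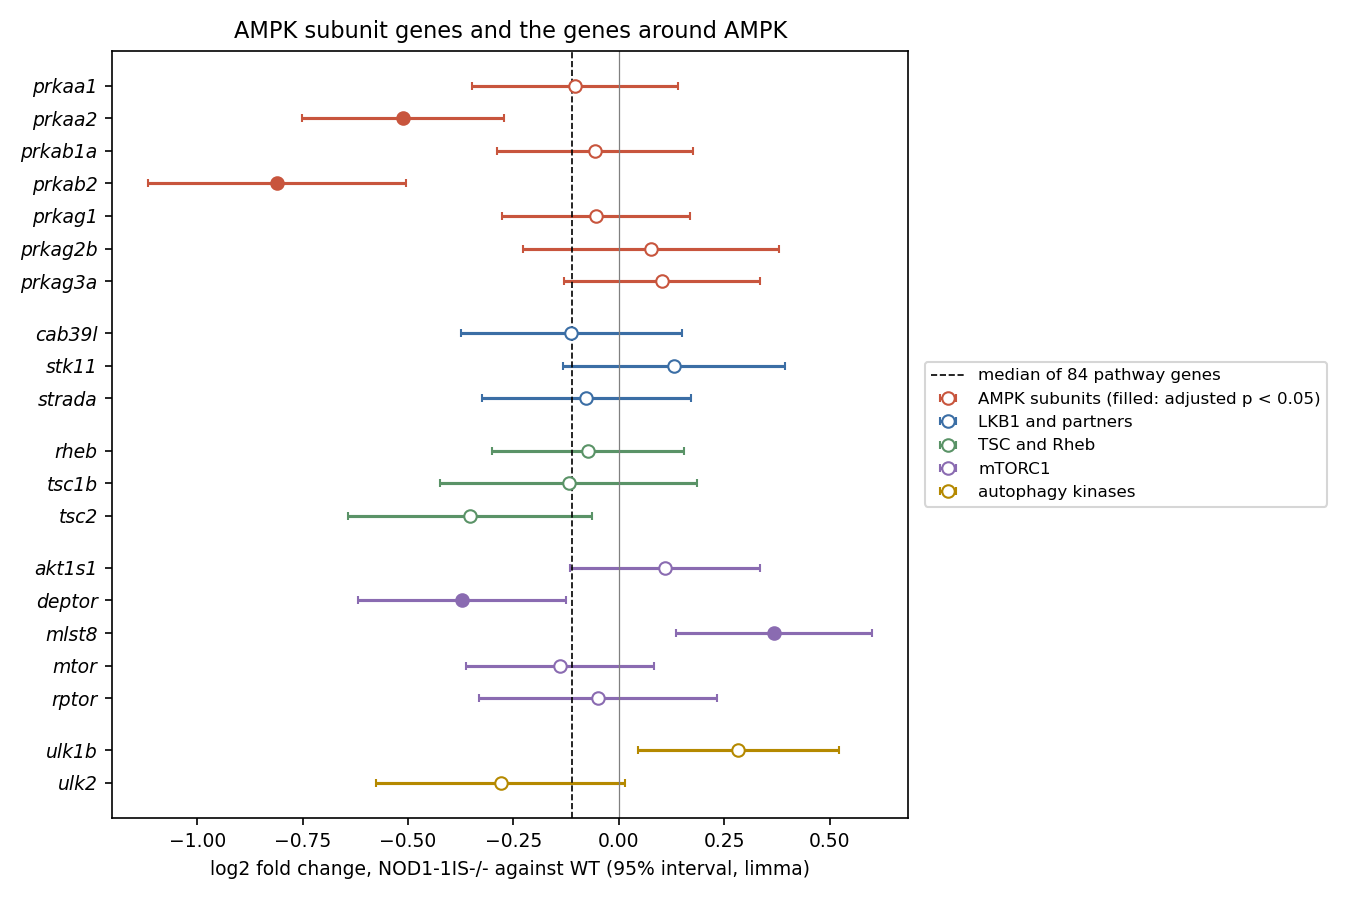
Log2 fold change between NOD1-1IS-/- and WT (x axis, 3 replicates per genotype, bars are 95% intervals from limma) of the 7 AMPK subunit genes and 13 genes around AMPK (y axis), with filled points for an adjusted p under 0.05. Of the 7, *prkab2* at −0.81 and *prkaa2* at −0.51 lie left of the dashed median of the 84 pathway genes (−0.11) with their whole interval. The references are *hprt1*, *nono* and *rpl13a*, and both genes lie right of 0 with *acta1b* alone. Under 11 other references *prkab2* kept its call in 9 and *prkaa2* in 6.

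A difference in Ct between genes of a replicate uses no reference gene, so it shows whether genes of a class moved unequally, whichever reference is chosen. Within the alpha class, *prkaa2* came 1.35 ± 0.157 cycles (SD, n = 3) after *prkaa1* in WT, while in NOD1-1IS-/- it came 1.76 ± 0.223 cycles (SD, n = 3) after it, a shift of 0.41 cycles. The WT differences reached at most 1.47 and the mutant ones started at 1.55, without overlap. Relative to *prkaa1*, the transcript of *prkaa2* was therefore 1.33-fold lower in the mutants.

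Within the beta class, *prkab2* came 2.47 ± 0.0775 cycles (SD, n = 3) after *prkab1a* in WT, while in NOD1-1IS-/- it came 3.23 ± 0.331 cycles (SD, n = 3) after it. The shift of 0.75 cycles, or 1.69-fold lower *prkab2* relative to *prkab1a*, exceeded the SD of both genotypes, and the ranges (2.39 to 2.54 and 2.84 to 3.44) did not overlap. By exact permutation, two-sided, the alpha and beta pairs each had p = 0.1, which is the minimum, and 0.25 after Benjamini-Hochberg adjustment over the 5 pairs compared, so neither passed a threshold that this design could not reach.

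The 3 pairs of gamma genes shifted less. The shift was −0.13 cycles for *prkag2b* against *prkag1*, −0.16 for *prkag3a* against *prkag1* and −0.03 for *prkag3a* against *prkag2b*. The genotypes overlapped in all 3 (two-sided exact permutation test, p = 0.6, 0.2 and 0.7). The Ct of a gene also depends on its primers, whose efficiencies were not given, so the differences within a genotype are no ratio of transcript levels, and only their shift between genotypes was compared.

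**Figure D3:**
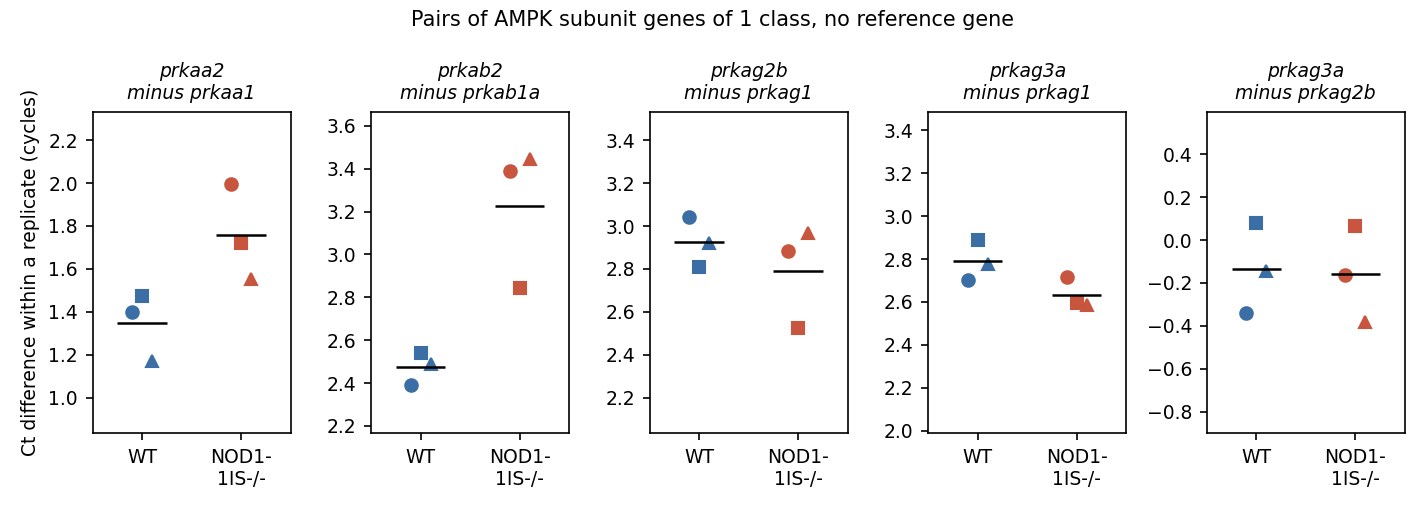
Difference in raw Ct between genes of the same subunit class within a replicate (y axis, cycles; each panel spans 1.5 cycles), for WT (blue) and NOD1-1IS-/- (red), with a circle, a square and a triangle for replicates 1, 2 and 3 and black lines for the means of 3. The alpha and beta pairs rise by 0.41 and 0.75 cycles without overlap of the genotypes, and the 3 gamma pairs overlap.

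The size of the changes depended on the reference genes, because another reference moves all genes of a replicate by the same amount. The main references did not move alike. On ΔCt, the log2 fold change was 0.20 for *nono*, −0.11 for *hprt1* and −0.10 for *rpl13a*, each without overlap of the genotypes. Since ΔCt subtracts the mean of these 3 genes, their values cannot all have the same sign. Their raw Ct all moved the same way, by −0.51 cycles for *nono*, −0.19 for *hprt1* and −0.21 for *rpl13a*. With *hprt1* and *rpl13a* only, *prkab2* was at −0.71 and *prkaa2* at −0.41, against −0.81 and −0.51 with *nono* included. Both still passed the test, and 10 pathway genes were lower, against 16 with *nono* included. Over 11 other references, the log2 fold change of *prkab2* ranged from −1.01 with *nono* alone to 0.19 with *acta1b* alone. It stayed lower with an adjusted p under 0.05 in 9 of these 11 and lost the call with *b2m* alone (−0.35, adjusted p = 0.0644 from limma) and with *acta1b* alone (adjusted p = 0.619). The log2 fold change of *prkaa2* ranged from −0.72 to 0.49 and passed the test in 6 of the 11. Apart from the median of the pathway genes (−0.37), each reference that kept this call contains *hprt1*, *nono* or *rpl13a*, so these are not independent checks. For *prkaa2* the call was lost with all 5 reference genes (−0.22), *b2m* alone (−0.05), the mean of the pathway genes (−0.27), raw Ct (−0.21) and *acta1b* alone (0.49).

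On raw Ct, with no reference, the genotypes did not overlap for *prkab2* or for *prkaa2*. The same held, in the opposite direction, for *prkag1* (21.73 to 21.90 in WT and 21.43 to 21.68 in NOD1-1IS-/-) and *prkag3a* (24.60 to 24.66 and 24.14 to 24.27). It also held for *hprt1*, *nono* and *rpl13a*, so separation on raw Ct was not particular to *prkab2* and *prkaa2*. The raw Ct of *prkab2* was 24.59 to 24.80 in WT and 24.95 to 25.30 in NOD1-1IS-/-, and that of *prkaa2* was 25.31 to 25.50 and 25.52 to 25.68 (exact permutation p = 0.1 for both, two-sided). The raw Ct of the other 5 AMPK genes changed the opposite way, by −0.20 cycles for *prkaa1* to −0.40 for *prkag3a*, and that of the positive control by −0.21.

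**Figure D4:**
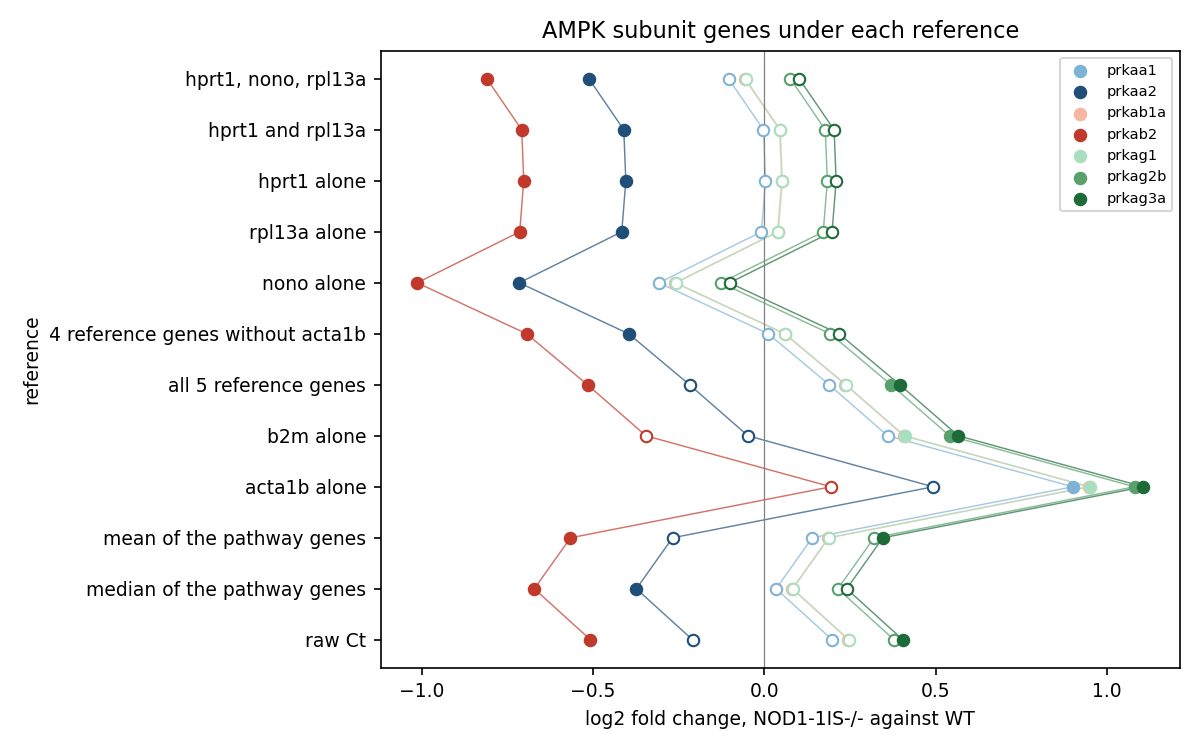
Log2 fold change between NOD1-1IS-/- and WT (x axis) of each AMPK subunit gene (one line per gene) under each reference (y axis), with filled points for an adjusted p under 0.05 from limma; *prkab1a* and *prkag1* lie on top of each other. All lines shift together, so the order of the genes, with *prkab2* and *prkaa2* lowest, is the same under each reference by construction. Both pass 0 with *acta1b* alone (0.19 and 0.49).

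The gene *acta1b* codes for skeletal muscle actin and is the only 1 of 8 fixed muscle markers with a well on the plate. It moved with *prkab2* and *prkaa2*, with a ΔCt of −2.95, −3.52 and −3.41 in WT and −1.74, −2.85 and −2.28 in NOD1-1IS-/-, so the mutants had 49.8% of the WT level. The genotypes did not overlap on ΔCt (exact permutation p = 0.1, two-sided), but they did on raw Ct. The reference gene *b2m* was also lower in the mutants without overlap on ΔCt, at 72.5% of WT. So were 28.6% of the 84 pathway genes, so moving in this direction was not particular to *acta1b*. Relative to *acta1b*, WT pools had a *prkab2* Ct of 8.32 ± 0.385 cycles (SD, n = 3), the mutants one of 8.13 ± 0.317 (SD, n = 3), and the genotypes overlapped (two-sided exact permutation test, p = 0.5). For *prkaa2* these values were 9.04 ± 0.279 and 8.55 ± 0.526 (SD, n = 3 each), again with overlap (p = 0.3 in the same exact test). The ΔCt of *acta1b* had an SD of 0.302 cycles in WT and 0.553 in NOD1-1IS-/-, larger than that of *prkab2* or *prkaa2*. A comparison against *acta1b* is therefore less precise, and overlap there does not show that the difference is absent. The genotypes also overlapped for *prkaa1* and *prkab1a*, whose shifts against *acta1b* were larger (−0.90 and −0.95 cycles, exact permutation p = 0.2 for both). The gamma3 gene *prkag3a* was at 8.28 ± 0.392 cycles in WT against 7.17 ± 0.548 in the mutants (SD, n = 3 each), without overlap, and *prkag1* and *prkag2b* did not overlap either. The part of muscle content in the differences of *prkab2* and *prkaa2* was not tested. Of other fixed markers, the insulin gene *ins* of pancreatic beta cells was higher in the mutants (log2 fold change 0.86, adjusted p = 0.0110 from limma), and the 2 liver markers have no well.

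Of the genes around AMPK, 13 were read on the plate, and 1 was lower and 1 was higher with an adjusted p under 0.05, against 19% and 3.57% of the pathway genes. None of the 3 genes of the activating kinase passed the test, with log2 fold changes of 0.13 for *stk11*, which codes for LKB1 itself, −0.08 for its partner *strada* and −0.11 for *cab39l*, a scaffold of the LKB1 complex. The 3 genes of the switch between AMPK and mTORC1 did not pass either. There *tsc2*, whose protein is a substrate of AMPK in mammals, was at −0.35 (adjusted p = 0.0755 from limma), *tsc1b* at −0.12 and the GTPase gene *rheb* at −0.07.

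Both calls, 1 lower and 1 higher, were of genes listed here under mTORC1, which has 5 genes, against 19% lower and 3.57% higher of the 84 pathway genes. The inhibitor gene *deptor* was lower (log2 fold change −0.37, adjusted p = 0.0383 from limma), a direction that turned with *b2m* alone and *acta1b* alone. Of the 11 other references only *nono* alone kept this call. The call was also lost with the replicate block (adjusted p = 0.0815) and with late genes left out (0.0514), both from limma. Leaving out any 1 replicate other than NOD1-1IS-/- replicate 2 lost it too (adjusted p = 0.0566 to 0.128 from limma). The gene *mlst8*, which codes for a subunit of the complex, was higher (0.37, adjusted p = 0.0362 from limma) and above 0 under every reference tried. Its call was lost with *nono* alone (adjusted p = 0.394), with the replicate block (0.0844), without NOD1-1IS-/- replicate 2 (0.0938) and without WT replicate 1 (0.0999), 2 (0.0613) or 3 (0.101), all from limma. The AMPK substrate gene *rptor* was at −0.05, *mtor* itself at −0.14 and *akt1s1*, an inhibitory subunit, at 0.11. The autophagy kinase genes *ulk1b* (0.28, adjusted p = 0.0812 from limma) and *ulk2* (−0.28, adjusted p = 0.177) had fold changes of opposite sign and neither passed. With the main references the change of *prkab2* was larger in size than that of each of these 13 genes, whereas *mlst8* changed more with all 5 reference genes, the mean of the pathway genes, raw Ct, *b2m* alone or *acta1b* alone.

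The 7 AMPK genes did not vary as a block over the 6 replicates. Over all 6 replicates, the Pearson r of −ΔCt ranged from −0.88 for *prkab1a* and *prkag2b* to 0.89 for *prkab2* and *prkaa2*. For *prkab2* and *prkaa2*, r was −0.05 once the mean of each genotype was removed. Both genes were lower without overlap, so their r over all 6 replicates follows from that difference and adds nothing to it. These values are a description over 6 points that share a reference mean. Among the 77 pathway genes outside the AMPK genes, those whose −ΔCt was most like that of *prkab2* were the phospholipase D gene *pld2* (r = 0.99), the Ras gene *hrasb* (r = 0.98) and the ribosomal S6 kinase gene *rps6ka2* (r = 0.96). With the genotype means removed, r was 0.98 for *pld2*, 0.83 for *hrasb* and 0.64 for *rps6ka2*. These genes were picked by r over the same 6 replicates, so the values with the means removed are no separate check. The SD of *hrasb* was only 0.022 cycles in each genotype, with 1 well per gene. The log2 fold change was −0.63 for *pld2* and −1.26 for *rps6ka2*. For *hrasb* it was −0.14 and did not pass the test (adjusted p = 0.349 from limma). Pearson r takes no account of the size of a change.

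None of the 7 AMPK genes lies on the chromosome of *nod1* in the RefSeq gene table, where 5 were found by the identifier on the plate and 2, *prkag2b* and *prkag3a*, by symbol. Each gene was read by 1 primer pair, whose specificity against the paralogs without a well was not tested.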

How the data were processed

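From TRIzol extracts, 1000 ng of RNA per replicate went into SuperScript III reverse transcription, and the PCR array ran for 40 cycles with SYBR Green detection. Raw Ct values were deposited by the authors for each replicate, another unit than counts; the threshold settings are not given in the sources used here. The deposited normalized values hold 1 linear ratio per genotype to the reference genes, made with the manufacturer's software. They matched −ΔCt from *hprt1*, *nono* and *rpl13a* to within 4.00e-07 on the log2 scale over the 89 genes. The deposited table of the authors' own fold changes was not used.

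Replicates were taken from the column names, and genes were joined to wells by position. The −ΔCt values were fitted with limma 3.58.1 (lmFit and eBayes, R 4.3.3), two-sided, over 84 pathway genes without the 5 reference genes, with no filter on Ct. The script was tested on simulated data. Exact permutation tests covered single genes and within-class Ct differences. Alternatives were 11 other references, a trended robust prior, the replicate number as a block, each replicate left out, late genes left out (mean Ct over 25 in both genotypes), and ratios of mean linear values. The AMPK genes and the gene lists were chosen with earlier results of these data known. Named are all AMPK genes, genes around AMPK (the 2 called ones and, chosen after their values were seen, the other 11), marker and reference genes, and the 3 genes most like the AMPK gene of lowest p. No genome build is named, so no coordinates are given.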

Additional observations from a re-analysis of the deposited data

How the results depend on the processing

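With each replicate left out in turn, 2 AMPK genes were lower and 0 higher in every fit (10 to 15 and 0 to 4 of the 84 pathway genes), and *prkab2* kept a log2 fold change between −0.95 and −0.71 and *prkaa2* one between −0.56 and −0.45. The within-class shift stayed between 0.64 and 0.94 cycles for *prkab2* against *prkab1a* and between 0.29 and 0.51 for *prkaa2* against *prkaa1*. The same fits gave 0 to 1 lower and 0 to 1 higher genes around AMPK. Without NOD1-1IS-/- replicate 3 or WT replicate 2, the lower gene was another than *deptor* (adjusted p of *deptor* 0.0744 and 0.0813 from limma). The count of lower AMPK genes fell from 2 (16 of the 84 pathway genes) to 1 on raw Ct (7 of 84), with all 5 reference genes (7 of 84) and with the pathway mean (9 of 84), and to 0 with *b2m* alone (5 of 84) and *acta1b* alone (3 of 84). It also fell to 1 when late genes were left out, with 5 lower among the pathway genes that remained. That fit removes *prkaa2* itself, so *prkaa2* has no value there. The gene still counted, *prkab2*, stayed in only through WT, with a mean raw Ct of 24.67 there and 25.18 in NOD1-1IS-/-. That fit is therefore no check of *prkab2*. The count of higher AMPK genes rose from 0 to 2 with all 5 reference genes (19 of the 84 pathway genes were then higher), 4 with *b2m* alone (39 of 84), 5 with *acta1b* alone (55 of 84), and 1 with the mean of the pathway genes (18 of 84) and with raw Ct (21 of 84). With *acta1b*, *b2m* or *nono* alone, and with the replicate block, limma gave every gene 1 shared standard error, so those p-values may be too small.

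Signs turned under other references. With *acta1b* alone the log2 fold change was 0.19 for *prkab2*, 0.49 for *prkaa2*, 0.90 for *prkaa1*, 0.95 for *prkab1a*, 0.95 for *prkag1* and 0.63 for *deptor*. For *prkaa1* it was 0.19 with all 5 reference genes, 0.012 without *acta1b*, 0.36 with *b2m* alone, 0.0035 with *hprt1* alone, 0.14 with the mean and 0.034 with the median of the pathway genes, and 0.20 on raw Ct. In the same order the values were 0.24, 0.059, 0.41, 0.051, 0.19, 0.081 and 0.25 for *prkab1a*, and 0.24, 0.061, 0.41, 0.053, 0.19, 0.084 and 0.25 for *prkag1*. With *rpl13a* alone and with *hprt1* and *rpl13a* they were 0.039 and 0.045 for *prkab1a* and 0.041 and 0.047 for *prkag1*. With *nono* alone *prkag2b* was at −0.13 and *prkag3a* at −0.10, without NOD1-1IS-/- replicate 2 *prkag2b* was at −0.043, and with *b2m* alone *deptor* was at 0.092. The median of the 84 genes moved from −0.11 to 0.89 with *acta1b* alone and to −0.31 with *nono* alone.

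Around AMPK, the lower count went from 1 to 3 with *nono* alone (29 of the 84 pathway genes) and to 2 with the trended robust prior (19 of 84). It went to 0 with the other 10 references (3 to 10 of 84), the replicate block (14 of 84) and late genes left out (5 of the genes that remained). The higher count went from 1 to 10 with *acta1b* alone (55 of 84), 7 with *b2m* alone (39 of 84), 4 (18 to 21 of 84) with all 5 reference genes, the mean of the pathway genes or raw Ct, 2 (4 to 7 of 84) with the 4 without *acta1b*, *hprt1* alone, *rpl13a* alone, both of these or the median, and 0 with *nono* alone (1 of 84) and with the replicate block (2 of 84). The cause of these moves was not tested beyond the shift of the reference. The replicate numbers did not pair the pools (r between the deviations of same-numbered pools −0.22, 0.09 and −0.05, and 0 of 6 correlated best with their own number), and with the replicate block 2 AMPK genes were lower and 0 higher (14 and 2 of the 84 pathway genes), with the caution on its p-values given above.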
